A study of Macaca mulatta with 36 samples.

Results

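The genes LYZ, VSIG4, PTPRC, CD68, CD53, CSF1R, SELPLG and SLC2A5, 8 markers of microglia and macrophages, were followed in the hippocampus of rhesus macaques with simian immunodeficiency virus encephalitis (SIVE) and of uninfected controls. Every probe set whose only gene symbol was one of the 8 was taken, which gave 17 of the 52865 probe sets on the array: 4 for PTPRC, 3 each for CD53 and SLC2A5, 2 each for CD68 and SELPLG, and 1 each for LYZ, VSIG4 and CSF1R. SIVE is an inflammation of the brain in macaques infected with simian immunodeficiency virus. Total RNA of 18 male animals was hybridized to 36 Affymetrix arrays, 2 arrays for each animal. Of the 9 SIVE animals, 4 carried an anti-CD8 label, that is, treatment with an antibody against CD8, and all 4 were 6 years old. The other 5 SIVE animals had no such treatment and were 2 to 5 years old. Among the 9 uninfected controls, 2 carried the anti-CD8 label and were 3 and 4 years old, and 7 did not and were 3 to 8 years old. The virus strain and the time since infection are not given in the sources used here, and infected animals without encephalitis were not among the samples, so infection and encephalitis cannot be told apart.

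Microglia are the resident phagocytes of brain tissue, and other macrophages line its vessels and meninges. Both cell types carry CSF1R, the receptor for the growth factors CSF1 and IL-34, on which microglia depend for survival. In SIVE, monocytes and macrophages that carry the virus collect around vessels, and the resident microglia become activated. The proteins of the 8 genes act at different places: LYZ is the secreted bacteria-degrading enzyme lysozyme, VSIG4 a receptor for complement C3 fragments on tissue macrophages, and PTPRC the membrane phosphatase CD45 of all nucleated blood cells. CD53 is a tetraspanin of leukocyte membranes, SELPLG (PSGL-1) the ligand by which leukocytes bind P-selectin on vessel walls, SLC2A5 the fructose transporter GLUT5, which in brain marks microglia, and CD68 a glycoprotein of lysosomes and endosomes in phagocytes.

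Values are log2 signals, the 2 arrays of an animal were averaged, and n is 9 animals in each group. The SD between the 2 arrays of an animal lay between 0.0704 and 0.305 for the 17 probe sets. A probe set passed the test at an adjusted p under 0.05 from limma over all 52707 probe sets tested, of which the median level was 5.65. The deposited log2 values give no detection call, so a probe set below that level is called dim here. In SIVE 2, SIVE 3 and Control 8 RNA quality differed: the 3′ probe sets of ACTB, EEF1A1 and GAPDH exceeded their 5′ probe sets by 1.19, 0.96 and 1.45 on average, against 0.10 to 0.47 in the other 15 animals. These 3 animals all carried the anti-CD8 label. Brain markers were bright in both groups: the mean of 3 neuronal genes lay between 10.93 and 11.40 in SIVE animals and between 11.09 and 11.75 in controls.

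Of the 17 probe sets, 10 were higher in SIVE animals, 1 was lower and 6 did not pass, so that 64.7% were called, against 4.92% of all probe sets tested. The higher ones were 58.8% of the 17, against a background of 3.63%, and for lower ones the background was 1.3%. This background takes in dim probe sets and those without a single gene symbol. Among named genes at their brightest probe set, 5.72% were higher and 1.51% lower. The 10 higher probe sets belonged to 6 genes, LYZ, VSIG4, PTPRC, CD53, SLC2A5 and CD68, the lower one to SELPLG, and CSF1R had no called probe set. The median difference of the 17 was 0.81, against -0.04 for all probe sets. Every SIVE animal lay above every control in 4 of the 17 (23.5%), for LYZ, VSIG4, the brightest PTPRC and the second CD53 probe set, against 1.2% of all probe sets. The genes were chosen with earlier results of these data known, so a high share of calls may be partly built in. Comparisons of the 17 with all probe sets, here and below, are therefore a description and not a test of enrichment. In bulk tissue, more cells of a type and more RNA per cell cannot be told apart.

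**Figure D1:**
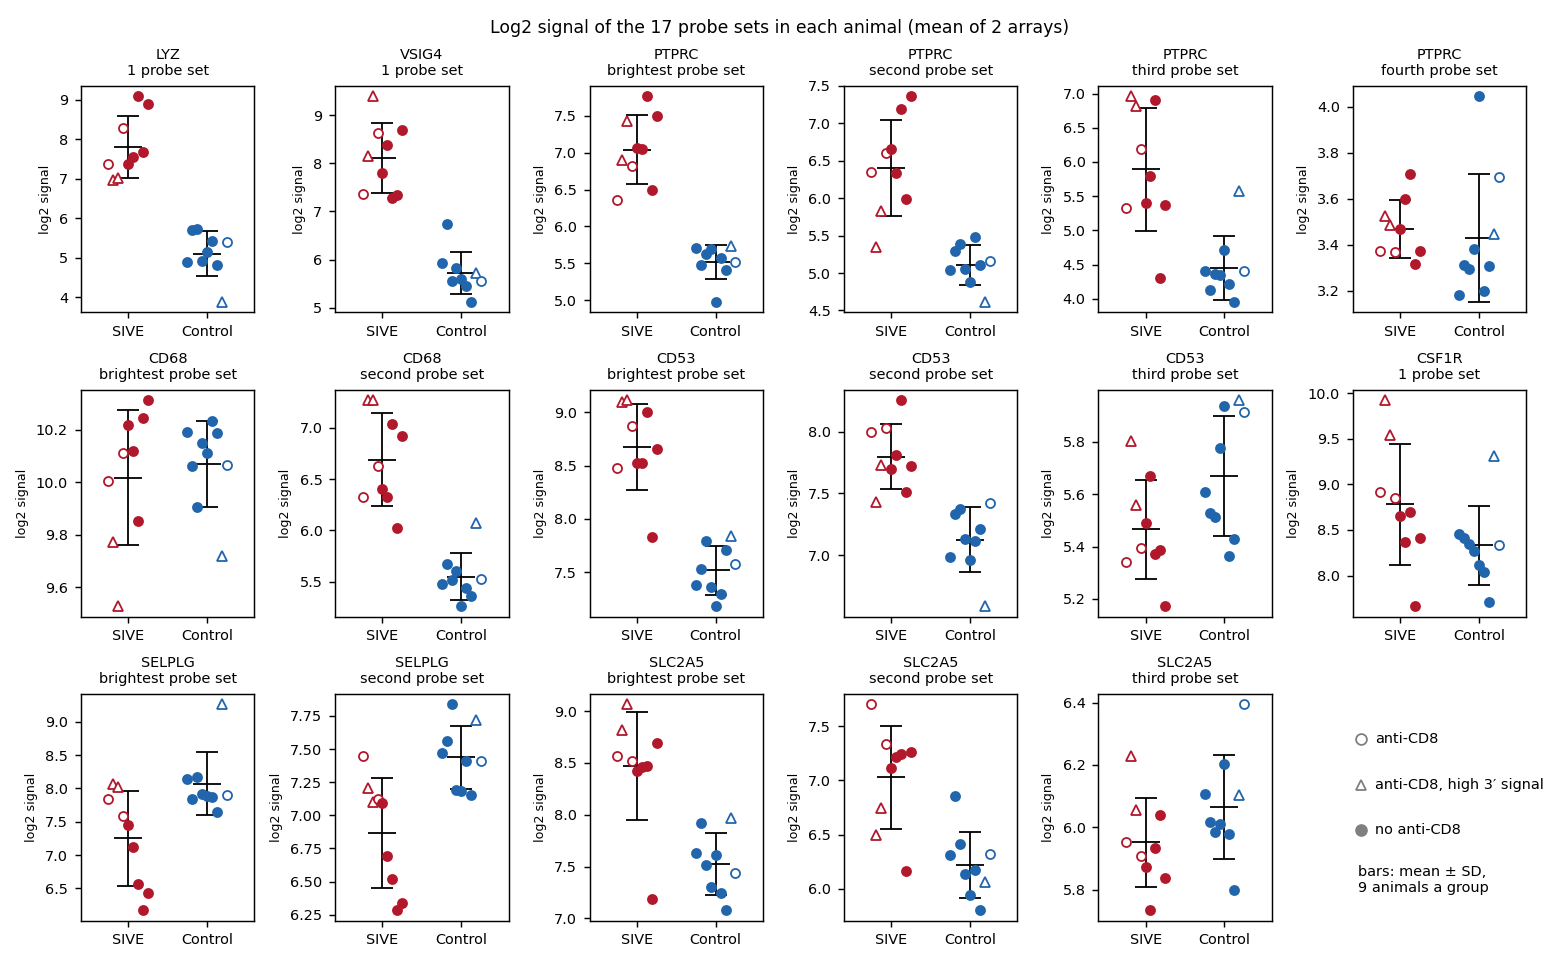
Log2 signal of each of the 17 probe sets in each animal, SIVE animals left of controls, with bars for the group mean ± SD and marks for anti-CD8 and for the 3 animals of high 3′ signal. LYZ, VSIG4, the brightest PTPRC and the second CD53 probe set separate the groups fully, CD68's brightest probe set covers the same range in both, and most SIVE values of SELPLG lie under those of the controls.

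LYZ showed the largest difference of the 17. Its lowest, median and highest log2 signals were 6.97, 7.55 and 9.10 in SIVE animals, against 3.87, 5.14 and 5.71 in controls. The lowest SIVE animal stood more than 1 log2 unit over the highest control, and the signal was above the median level of the array in all SIVE animals but in 2 of the controls only. The means were 7.80 ± 0.78 in SIVE animals and 5.10 ± 0.57 in controls (SD), a difference of 2.71 ± 0.30 (SE), or 6.52-fold, with a limma adjusted p of 4.71e-06.

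VSIG4, the complement receptor, had log2 signals of 7.28, 8.15 and 9.40 (lowest, median and highest) in SIVE animals, against 5.12, 5.60 and 6.73 in controls. The groups did not overlap here either, although Control 2, the highest control, came within 0.6 of the lowest SIVE animal. The means of 8.11 ± 0.73 in SIVE animals and 5.72 ± 0.44 in controls (SD) gave a difference of 2.39 ± 0.26 (SE), 5.24-fold, with a limma adjusted p of 5.06e-06. Of 7 other measured genes of complement receptors and regulators, 2 rose and none fell, CFB, the serine protease factor B, by 1.77 and C5AR1, the C5a receptor, by 0.86. Of the chains of complement receptor 3, ITGAM, the alpha chain, differed by -0.35 (adjusted p = 0.323) and ITGB2, the beta chain, by 0.67 (adjusted p = 0.0537). The median of these 7 was 0.42, against -0.02 for the 14132 named genes at their brightest probe set, of which 5.72% were higher and 1.51% lower.

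PTPRC was read by 4 probe sets. The brightest, MmuSTS.3737.1.S1_at, had log2 signals of 6.36, 7.05 and 7.77 (lowest, median and highest) in SIVE animals, against 4.97, 5.57 and 5.73 in controls. Its groups were fully apart, and its difference of 1.52 ± 0.16 (SE), 2.87-fold, had the smallest adjusted p of the 17, 3.38e-06. The second probe set had 5.35, 6.35 and 7.36 in SIVE animals, against 4.61, 5.10 and 5.49 in controls, a difference of 1.30 ± 0.21 (adjusted p = 0.000628). The third had 4.30, 5.79 and 6.96 in SIVE animals, against 3.95, 4.36 and 5.57 in controls, a difference of 1.44 ± 0.31 (adjusted p = 0.00821). Both ran the same way, with 8 SIVE animals above all controls in the second and 5 in the third, whose highest control was Control 8. The fourth lay below 4.1 in all 18 animals, with means differing by 0.04 ± 0.10 (adjusted p = 0.852), and at so dim a level it gives little information on the gene. CD45 acts on Src-family kinases, and of 6 measured kinases and phosphatases of that signalling, with a median difference of 0.54, 4 rose and none fell. The Src-family kinases LYN and FGR rose by 1.15 and 0.42, the phosphatase PTPN6 (SHP-1) by 0.66 and the kinase SYK by 0.72.

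CD53's brightest probe set had log2 signals of 7.83, 8.66 and 9.12 (lowest, median and highest) in SIVE animals, against 7.18, 7.53 and 7.84 in controls, a difference of 1.16 ± 0.15 (SE), 2.23-fold (adjusted p = 2.88e-05). Here 8 SIVE animals lay above all controls, and SIVE 8 lay just inside the control range. The second probe set, with 7.43, 7.73 and 8.26 in SIVE animals against 6.58, 7.13 and 7.43 in controls, kept the groups apart by a margin smaller than the spread between the 2 arrays of an animal and differed by 0.67 ± 0.12 (adjusted p = 0.00109). The third, near the median level, had 5.17, 5.40 and 5.80 in SIVE animals against 5.36, 5.61 and 5.96 in controls and went the other way without passing, with a difference of -0.20 ± 0.10 (adjusted p = 0.232). Of 10 other tetraspanins, with a median difference of 0.24, 4 rose and none fell: TSPAN33 by 0.76, CD63 by 0.54, CD81 by 0.27 and the leukocyte tetraspanin CD37 by 0.78.

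SLC2A5, the fructose transporter, had 2 probe sets that rose and 1 that did not pass. The brightest gave log2 signals of 7.19, 8.52 and 9.06 (lowest, median and highest) in SIVE animals, against 7.08, 7.52 and 7.97 in controls, a difference of 0.94 ± 0.19 (SE), 1.92-fold (adjusted p = 0.00371). All SIVE animals but SIVE 8 lay above the controls. The second, MmugDNA.4314.1.S1_s_at, of the array's class whose probes can match more than 1 transcript, gave 6.17, 7.21 and 7.70 in SIVE animals against 5.80, 6.17 and 6.86 in controls and differed by 0.81 ± 0.18 (adjusted p = 0.00828). The third stayed within 5.73 to 6.23 in SIVE animals and 5.80 to 6.39 in controls, with a difference of -0.11 ± 0.07 (adjusted p = 0.385). Among 8 other hexose transporters and enzymes of fructose use, with a median difference of 0.07, only HK2, a hexokinase, passed, and it rose by 1.03. SLC2A10 differed by 0.53 (adjusted p = 0.0672), and SLC2A1, the glucose transporter of brain vessels, by 0.23 (adjusted p = 0.190). Without SIVE 1, SIVE 2 or SIVE 6 the count of this list was 2, with SLC2A10 passing.

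The 2 probe sets of CD68 differed in what they showed. The brightest, MmugDNA.11447.1.S1_at, had log2 signals of 9.53, 10.11 and 10.31 (lowest, median and highest) in SIVE animals, against 9.72, 10.11 and 10.24 in controls. The ranges covered each other almost entirely, and the difference was -0.05 ± 0.10 (SE) with a 95% interval from -0.26 to 0.15 (adjusted p = 0.804). The other, MmuSTS.3489.1.S1_at, had 6.02, 6.63 and 7.27 in SIVE animals, against 5.26, 5.51 and 6.07 in controls, with 8 SIVE animals above all controls. It rose by 1.14 ± 0.16, 2.21-fold (adjusted p = 9.58e-05). Within the 9 SIVE animals the 2 probe sets ran against each other, with r = -0.715 (exact permutation p = 0.0308, adjusted p = 0.193 over 14 pairs of probe sets of a gene) and rho = -0.633 (exact permutation p = 0.0760), and with r = -0.341 without SIVE 2 and SIVE 3, the 2 animals farthest from the median and those of high 3′ signal. Which of the probe sets measures the CD68 transcript more closely cannot be read from these values. Of 10 other lysosomal genes, with a median difference of 0.19, 4 rose and none fell: the tetraspanin CD63 by 0.54, the proteases CTSL by 0.48 and CTSS by 0.77, and the cholesterol carrier NPC2 by 0.46.

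CSF1R, the growth factor receptor, did not pass. Its log2 signals were 7.66, 8.70 and 9.92 (lowest, median and highest) in SIVE animals, against 7.71, 8.33 and 9.31 in controls. The lowest value of all belonged to a SIVE animal, SIVE 8, and the highest control was Control 8. The means were 8.78 ± 0.66 in SIVE animals and 8.33 ± 0.43 in controls (SD), a difference of 0.45 ± 0.24 (SE) with a 95% interval from -0.06 to 0.96 (adjusted p = 0.296), which leaves room for a rise of nearly 2-fold. Without the 3 animals of high 3′ signal the difference was 0.30 (adjusted p = 0.237). The ligands CSF1, dim in both groups, and IL34 differed by 0.07 and -0.26, and neither passed. The myeloid transcription factor IRF8 differed by -0.08 at its brightest probe set (adjusted p = 0.788), while its 2 other probe sets rose, by 0.46 (adjusted p = 0.0423) and 0.54 (adjusted p = 0.0210). Of 10 such ligands, partners and transcription factors, read at the brightest probe set and with a median difference of -0.01, 2 rose and none fell, CSF2RB, the shared beta chain of the IL-3 and GM-CSF receptors, by 1.57 and the transcription factor CEBPB by 0.98, while CEBPA (0.30, adjusted p = 0.211) did not pass.

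SELPLG, the selectin ligand, was the one gene of the 8 with a lower probe set. The brightest had log2 signals of 6.17, 7.46 and 8.07 (lowest, median and highest) in SIVE animals, against 7.64, 7.90 and 9.26 in controls, with 6 SIVE animals below all controls. Its difference of -0.82 ± 0.26 (SE) did not pass (adjusted p = 0.0850). The second, MmuSTS.3252.1.S1_at, had 6.28, 7.09 and 7.45 in SIVE animals against 7.15, 7.41 and 7.84 in controls, with 7 SIVE animals below all controls, and fell by 0.57 ± 0.15 (adjusted p = 0.0322). Both probe sets ran together within the 9 SIVE animals (r = 0.944, exact permutation p = 0.000369, adjusted p = 0.00517 over the 14 pairs; rho = 0.917, exact permutation p = 0.00131; r = 0.873 without SIVE 8 and SIVE 9), the only one of the 14 pairs to pass. The call stood close to the threshold: the second probe set did not pass when SIVE 6, SIVE 7, SIVE 8, SIVE 9, Control 1, Control 2, Control 3, Control 8 or Control 9 was left out (adjusted p 0.0522 to 0.0662), and the brightest passed without SIVE 2 (adjusted p = 0.0448). Without all 3 animals of high 3′ signal both passed, at -0.89 (adjusted p = 0.0149) and -0.62 (adjusted p = 0.0286). Of 8 selectins and enzymes that build selectin ligands, with a median difference of 0.11, CD44, an adhesion receptor, rose by 1.24. The other 7 did not pass, among them SELP (0.13), SELE (0.27) and FUT7 (-0.25). In all, 4 of the 8 were dim in both groups, SELP, SELE and FUT7 among them, and give little information. Without SIVE 8 the count was 2, with SELE passing, though its mean log2 signals were only 3.96 in SIVE animals and 3.69 in controls.

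**Figure D2:**
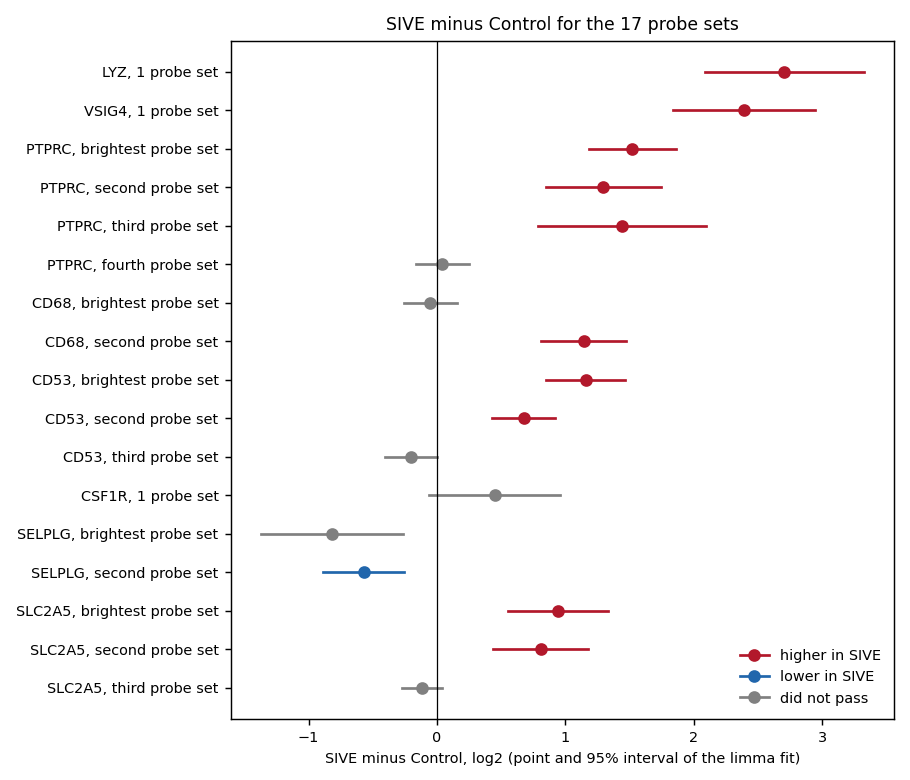
Difference in log2 signal, SIVE minus control, of each of the 17 probe sets, with its 95% interval from limma and the call. LYZ (2.71) and VSIG4 (2.39) lie farthest to the right, both SELPLG probe sets lie left of 0, and PTPRC, CD53, SLC2A5, CD68 and SELPLG each hold both called and uncalled probe sets.

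Each of the 5 genes with more than 1 probe set thus had called and uncalled ones. The 3 animals of high 3′ signal stood apart from the rest of both their groups in 8 of the 17 probe sets: they were below it in LYZ, the second PTPRC and the brightest CD68 probe set, and above it in the other CD68, the brightest CD53, SELPLG and SLC2A5 and the CSF1R probe sets. How often these animals stood apart over all probe sets was not computed, so the count is not shown to be particular to these genes. RNA quality moved with these values, and its part in the results was not tested beyond leaving the animals out. Without them 12 of the 17 were called, 10 higher and 2 lower.

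The anti-CD8 label divides both groups. Among animals with it, 4 SIVE and 2 controls, 3 of the 17 probe sets were called, against 1.05% of all probe sets; all 3 were higher in SIVE (background 0.844%) and 0 lower (background 0.209%): LYZ by 2.78 ± 0.51 (SE; adjusted p = 0.00927), VSIG4 by 2.74 ± 0.49 (adjusted p = 0.00718) and CD53's brightest probe set by 1.18 ± 0.25 (adjusted p = 0.0257). Among animals without it, 5 SIVE and 7 controls, 9 of the 17 were called (background 3.13%), 7 of them higher (background 2.34%) and 2 lower (background 0.791%). LYZ rose there by 2.88 ± 0.34 and VSIG4 by 2.15 ± 0.33, and the brightest and second PTPRC, the dimmer CD68 and the brightest and second CD53 probe sets rose too. Both SELPLG probe sets fell in the animals without anti-CD8, the brightest by 1.17 ± 0.22 (adjusted p = 0.00478) and the second by 0.82 ± 0.14 (adjusted p = 0.00235), while in those with it the differences were -0.70 ± 0.33 (adjusted p = 0.317) and -0.34 ± 0.21 (adjusted p = 0.439). SLC2A5's brightest probe set differed by 1.04 ± 0.32 with anti-CD8 (adjusted p = 0.142) and by 0.77 ± 0.22 without it (adjusted p = 0.0626). The count in animals with anti-CD8 was 0 when Control 8 was left out, which leaves 1 control assumed to vary like the other animals, and 5 when SIVE 1, SIVE 8 or Control 5 was.

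The test of the difference between the SIVE effects with and without anti-CD8 called 0 of the 17 (background 0.0%) in limma, and none had an unadjusted p under 0.05. The values lay between -0.43 ± 0.36 for the brightest PTPRC probe set and 0.59 ± 0.59 for VSIG4, and their wide intervals (for SELPLG's second probe set 0.47, from -0.06 to 1.01) do not show that the effects were alike.

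**Figure D3:**
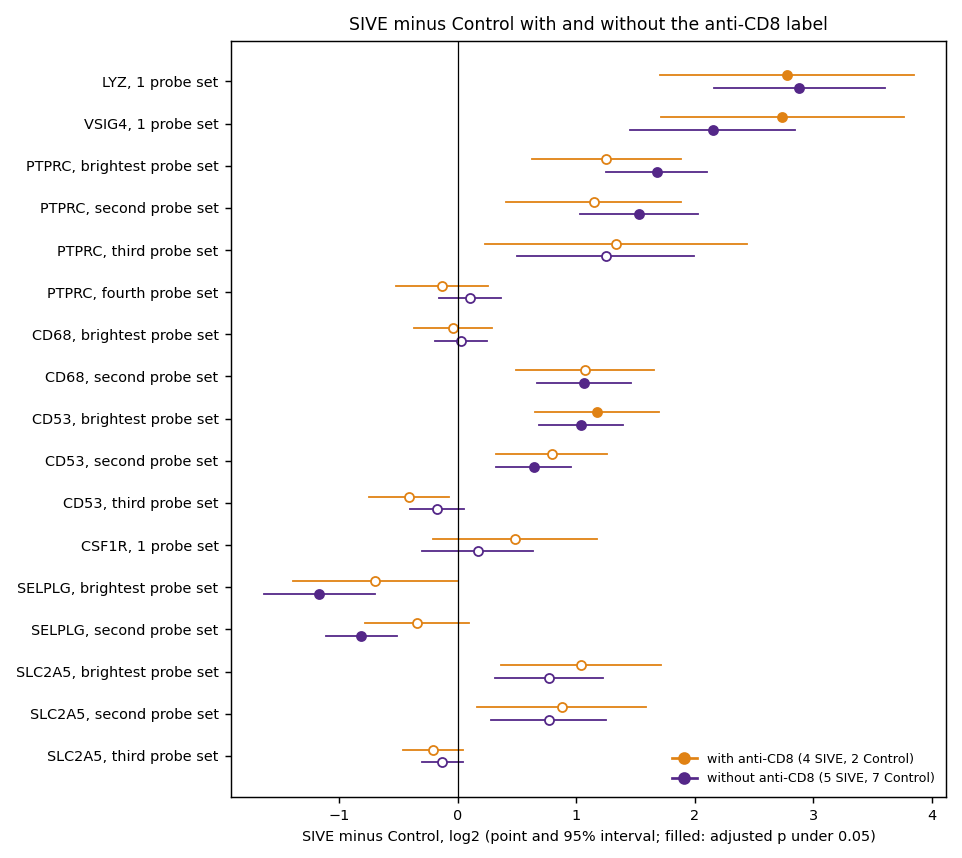
SIVE minus control difference in log2 signal of each probe set in animals with anti-CD8 (upper mark) and without it (lower mark), with 95% intervals from the fit of 4 group means. LYZ and VSIG4 lie well right of 0 in both, and SELPLG's brightest probe set lies at -0.70 with anti-CD8 and at -1.17 without.

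Within the SIVE animals, the CSF1R and SELPLG signals separated by the anti-CD8 label, without passing the test over all probe sets. CSF1R had log2 signals of 8.92, 9.92, 9.54 and 8.85 in the 4 SIVE animals with anti-CD8, against 8.66, 8.37, 8.70, 7.66 and 8.41 in the 5 without it. SELPLG's brightest probe set had 7.84, 8.07, 8.02 and 7.59 in those with it, against 7.46, 7.13, 6.57, 6.17 and 6.44 in those without it. In these 2 and in SELPLG's second probe set every animal with anti-CD8 lay above every one without it, which made 3 of the 17, against 3.23% of all probe sets, and in 0 of the 17 they all lay below (1.02%). For SELPLG's second probe set the margin, 7.099 in SIVE 3 against 7.091 in SIVE 5, was smaller than the SD between arrays. The SELPLG probe sets read the same gene and ran together (r = 0.944), so they are not separate cases. The differences, with minus without anti-CD8, were 0.95 ± 0.25 (SE) for CSF1R, 1.13 ± 0.25 for SELPLG's brightest and 0.63 ± 0.16 for its second probe set. None of the 17 passed over all probe sets in limma (background 0.0019%), with a smallest adjusted p of 0.298, and 5 had an unadjusted p under 0.05. With all 36 arrays in the fit and the animal as a random block, these same 3 probe sets passed (adjusted p 0.00720 for CSF1R, 0.00159 and 0.00795 for SELPLG). That fit takes 1 correlation between the 2 arrays of an animal for all probe sets. The correlation was 0.572 in the fit of the 2 groups, and its value in this fit of 4 means was not kept. In these 3 probe sets the SD between the arrays was 0.0768 to 0.112 and the SD between SIVE animals was several times larger. The fit thus partly counts repeat arrays as further animals. The SIVE animals with anti-CD8 were all 6 years old and those without it younger, so age and treatment cannot be told apart, and 2 of the 4 had high 3′ signal.

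Covariation between the genes was read over the 9 SIVE animals with the brightest probe set of each gene, 28 pairs in all, and 3 pairs passed on Pearson's r. CSF1R and SELPLG had r = 0.853 (exact permutation p = 0.00133, adjusted p = 0.0373) and rho = 0.917 (adjusted p = 0.0367), and r = 0.744 without SIVE 2 and SIVE 8, the 2 animals farthest from the median of CSF1R. CSF1R, which did not pass against controls, thus ran within the SIVE animals with a gene whose second probe set was lower than in controls. CD53 and SLC2A5 had r = 0.879 (exact permutation, adjusted p = 0.0438) and rho = 0.733 (adjusted p = 0.145), but r = 0.462 without SIVE 8 and SIVE 3, so the relation rests on those animals. CD53 and CSF1R had r = 0.844 (exact permutation, adjusted p = 0.0438), rho = 0.667 (adjusted p = 0.183) and r = 0.640 without the same 2 animals. With the mean of each anti-CD8 label removed, r was 0.615 for CSF1R and SELPLG, 0.839 for CD53 and SLC2A5 and 0.827 for CD53 and CSF1R; the highest of the 28 pairs was then PTPRC and CD53, at 0.929, which had r = 0.594 (exact permutation, adjusted p = 0.223) and rho = 0.550 (adjusted p = 0.286) before and did not pass. The groups of 4 and 5 animals are too small for values of their own. No pair passed without SIVE 2 and SIVE 3 (r = 0.776, 0.838 and 0.799, smallest adjusted p = 0.449), nor without SIVE 2, SIVE 3, SIVE 4, SIVE 5 or SIVE 8 alone, while 1 passed without SIVE 6 and 5 without SIVE 9.

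**Figure D4:**
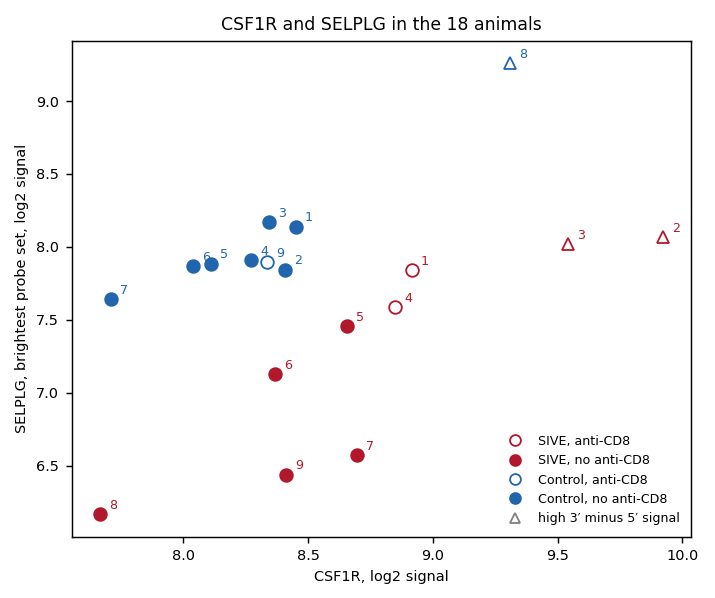
Log2 signal of CSF1R (x axis) against the brightest SELPLG probe set (y axis) in each animal, with SIVE animals and controls, the anti-CD8 label and the 3 animals of high 3′ signal marked. The 4 SIVE animals with anti-CD8 sit at the upper right of the SIVE animals, and at a like CSF1R signal most controls lie higher on the SELPLG axis.

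The array carries 9 probe sets whose identifiers hold a sequence accession that is taken here to be that of simian immunodeficiency virus; no annotation used here names them, and the relations with virus signal rest on that reading. Their mean log2 signal lay between 5.23 and 7.30 in SIVE animals and between 3.90 and 4.27 in controls. Within the 9 SIVE animals none of the 8 genes passed against this mean. The largest were SELPLG (r = -0.663, exact permutation p = 0.0567, adjusted p = 0.259 over 8 genes; rho = -0.450) and LYZ (r = 0.644, exact permutation p = 0.0648, adjusted p = 0.259; rho = 0.367). Without SIVE 7 and SIVE 6, the animals farthest from the median of the virus signal, r was -0.780 for SELPLG and 0.484 for LYZ.

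The genes whose brightest probe set was most like each member were taken from 10053 genes by Pearson's r over the 18 animals with the group means removed, as a description. Closest to CSF1R were NCKAP1L (r = 0.956), an actin regulator of blood cells, PYCARD (0.954), the inflammasome adaptor ASC, and SASH3 (0.942), an adaptor of lymphocytes. Closest to SELPLG were LY86 (0.956), which encodes MD-1, a partner of the receptor RP105, PCYT2 (0.938), an enzyme of phospholipid synthesis, and MZT2B (0.937). CD68's brightest probe set stood nearest to TRIQK (0.918), TBCK (0.909) and FAM168A (0.889). For the other genes the nearest were RASGRP3 (0.874) for CD53, LOC716834 (0.873) for SLC2A5, RNF144B (0.856) for LYZ, FN1 (0.824), which encodes fibronectin, for PTPRC, and RPL30 (0.817), a ribosomal protein, for VSIG4. The animals of high 3′ signal are among the 18, and their part in these likenesses was not tested.

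Other markers of the same cells were read from lists that leave out the 8 genes. Of 11 genes shared by microglia and macrophages, 8 rose and none fell, with a median difference of 0.83. The complement subunits C1QA and C1QC rose by 2.36 and 2.16, CYBB, the catalytic chain of the phagocyte oxidase, by 2.00, and CD14, the lipopolysaccharide coreceptor, by 1.18. TYROBP (0.77, adjusted p = 0.0794), TREM2 (0.54, adjusted p = 0.121) and ITGAM did not pass. The mean of these 11 lay between 8.47 and 9.63 in SIVE animals and between 7.25 and 8.30 in controls, so the groups did not overlap. Taken singly, C1QA, C1QB, C1QC, CD14 and CYBB kept the groups apart, while AIF1, TYROBP, ITGAM, CTSS, TREM2 and LY86 did not. How often means of as many genes separate the groups was not computed. In contrast, none of 4 measured markers of homeostatic microglia passed: P2RY12, a purine receptor, differed by -0.44 ± 0.46 (SE; adjusted p = 0.615), GPR34 by -0.55 ± 0.37 (adjusted p = 0.407), CX3CR1 by -0.15 ± 0.19 (adjusted p = 0.674) and TMEM119 by -0.10 ± 0.11 (adjusted p = 0.635). Their mean lay between 5.88 and 7.55 in SIVE animals and between 6.08 and 7.60 in controls, and with 4 genes of 9 in the list this is a thin reading. Of 10 markers of macrophages of vessels and meninges, with a median of 0.19, 4 rose and none fell, LYVE1 by 1.43, MS4A7 by 1.09, SIGLEC1 by 1.06 and MS4A4A by 1.03. In both groups 3 of these 10 were dim, MS4A4A among them. Probe sets disagreed in the lists too. Besides IRF8, the brightest probe sets of F13A1 (0.03), GPNMB (0.00), RUNX1 (-0.09) and MS4A1 (0.36) did not pass, while another of each rose. The rises were 0.96 for F13A1, 2.42 for GPNMB, 0.72 for RUNX1 (1 of 7 probe sets) and 0.25 for MS4A1 (1 of 4). Conversely, some genes named here as changed passed at their brightest probe set only. These were TUBB3 (1 of 4), MS4A7 (1 of 3), and C1QA, VWF, CDH5, CD81, GFAP, JCHAIN, CSF2RB and MPO (1 of 2 each). Others passed at every probe set, such as CYBB and LYVE1 (3 of 3 each). CD163 and SPI1 were not analysed here.

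Markers of other cells were read in the same way. Of 8 monocyte genes, 4 of them dim in both groups, only PLAC8 passed, with a rise of 3.43. S100A8 (0.96, adjusted p = 0.0918), 1 of the dim genes, and S100A9 (0.73, adjusted p = 0.0730) did not pass. The mean of the 8, PLAC8 included, lay between 5.63 and 6.40 in SIVE animals and between 5.29 and 5.67 in controls. The median difference of the 8 was only 0.02. Of 3 neutrophil genes MPO, a granule enzyme, fell by 0.24. ELANE (-0.16) and CSF3R (0.04), each dim in both groups, did not pass. None of 6 dendritic cell genes, 2 of them dim in both groups, passed, among them CLEC10A (-0.22), LAMP3 (-0.15, dim) and CD1C (-0.11). Of 4 T cell genes, 3 of them dim in both groups, none passed (CD5 -0.16, adjusted p = 0.0859; CD6 -0.20, adjusted p = 0.113; CD28 -0.08, adjusted p = 0.508), and their mean lay between 4.78 and 5.07 in SIVE animals and between 4.77 and 5.33 in controls; the CD3 chains were not analysed here. GZMB, which encodes granzyme B, rose by 2.36, the only one of 6 genes of CD8 and cytotoxic lymphocytes to pass. CD8A (-0.12) did not, nor did NKG7 (0.41) and CD8B (-0.10), each dim in both groups. JCHAIN, the joining chain of secreted antibodies, rose by 2.81, the only one of 5 genes of B and plasma cells to pass. The mean of the 5, JCHAIN included, lay between 5.44 and 6.55 in SIVE animals and between 5.30 and 5.62 in controls. The median difference of the 5 was 0.14. MS4A1 (0.36), dim in both groups, and CD79B (-0.28) did not pass. PTPRC, CD53 and SELPLG are also carried by lymphocytes, and the part of these cells in their values was not tested. Leaving out 1 animal moved some of these counts: the monocyte list had 2 called genes without SIVE 5, SIVE 8 or Control 1, the cytotoxic list 2 without SIVE 9, and the T cell list 2 without Control 7, when CD5 and CD6 passed as lower in SIVE.

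Of 7 endothelial genes, with a median difference of 0.23, 3 rose and none fell, PECAM1 by 0.83, VWF by 0.98 and CDH5 by 0.52. Of 5 cell division genes, 2 rose, TOP2A, a DNA topoisomerase, by 1.34 and PCNA, the sliding clamp of DNA replication, by 0.46. MKI67 (0.27), dim in both groups, did not pass. Of 3 neuronal genes, with a median of -0.22, TUBB3, a neuronal tubulin, fell by 0.51, and SYT1 (-0.06) and STMN2 (-0.22) did not pass. Of 5 astrocyte genes, with a median of -0.13, the glutamate transporter SLC1A2 fell by 0.52, GFAP, the astrocyte filament, rose by 0.36, and the other 3 did not pass, SLC1A3 among them (0.12). Of 3 oligodendrocyte genes, with a median of -0.32, the myelin gene MBP fell by 0.32 and UGT8, which makes a myelin lipid, by 0.58, and CNP (0.06) did not pass. None of 5 hippocampal markers passed, with a median of 0.14, among them PROX1 (-0.18), DSP (0.35, dim in both groups) and ZBTB20 (0.15).

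The 3 animals of high 3′ signal also stood apart from the rest of both their groups in 12 of the 22 lists. They were above it in 9, which include the genes shared by microglia and macrophages, the endothelial genes, the CD45 kinases, the tetraspanins, the complement receptors and the CSF1R partners, and below it in 3, the homeostatic microglia, neuronal and hippocampal genes. For the shared genes the list mean was 9.43 in SIVE 2 and 9.63 in SIVE 3, against 8.47 to 9.13 in the other SIVE animals, and 8.30 in Control 8, against 7.25 to 8.00 in the other controls. For the homeostatic genes it was 5.88 in SIVE 2 and 6.23 in SIVE 3, against 6.29 to 7.55 in the other SIVE animals, and 6.08 in Control 8, against 7.04 to 7.60 in the other controls. For the endothelial genes it was 7.77 in SIVE 2 and 8.01 in SIVE 3, against 7.13 to 7.64 in the other SIVE animals, and 7.69 in Control 8, against 6.89 to 7.20 in the other controls. Without these animals the counts were 8 of 11, 0 of 4 and 3 of 7 for these lists, as with them. How often these animals stood apart over all genes was not computed, so the pattern is not shown to be particular to these lists.

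**Figure D5:**
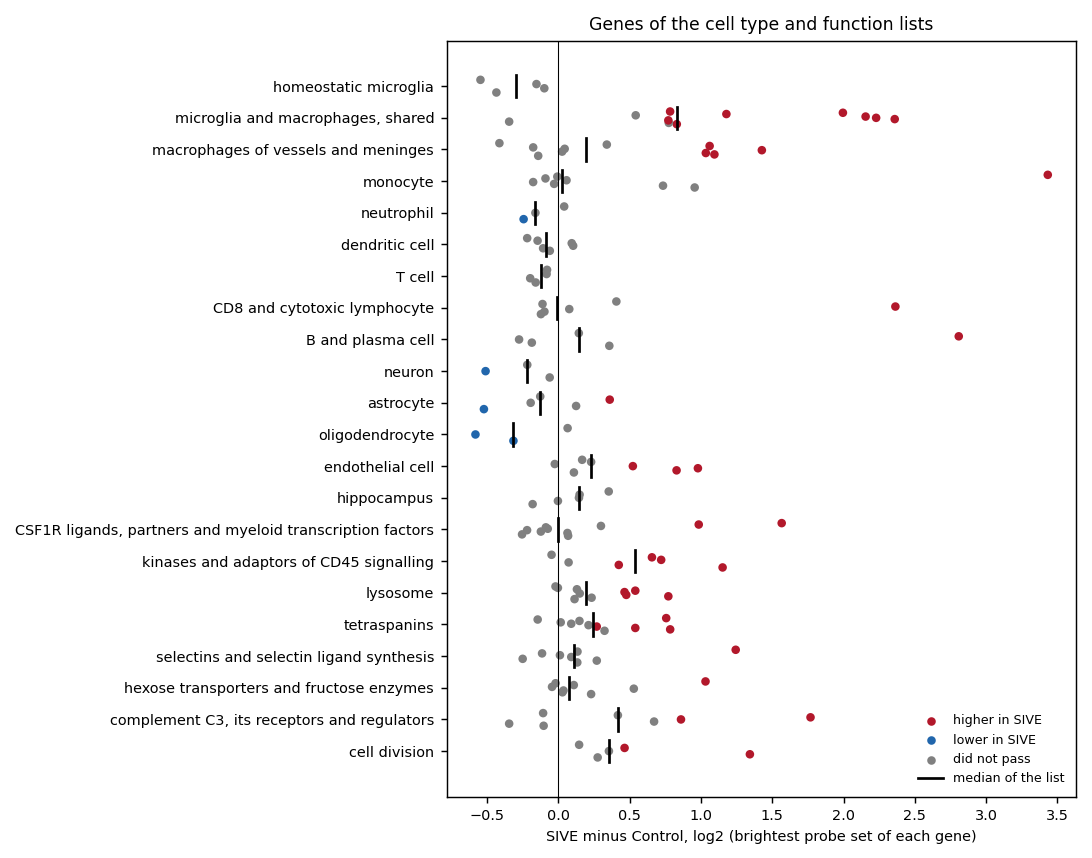
Difference in log2 signal, SIVE minus control, of each measured gene in each list (points), with calls marked and the list's median as a line. The genes shared by microglia and macrophages reach 2.36 with a median of 0.83, and the homeostatic microglia genes all lie left of 0 without a call.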

How the data were processed

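The deposited table holds log2 values, read as such from their range up to 14.49, that the authors made with RMA (background correction, normalization between arrays and summary of probes), per the submitters' processing notes; no version of RMA was given. Array medians lay between 5.59 and 5.75, and the number of arrays limits the precision. Of 52865 probe sets, 158 control and reporter sets were left out. Symbols came from the platform annotation, and 24956 tested probe sets had 1 symbol. The 2 arrays of an animal were averaged and counted once, and p-values measure the spread between animals. Differences were tested by limma's lmFit and eBayes (version 3.58.1, R 4.3.3; two-sided, threshold 0.05, Benjamini-Hochberg over 52707 probe sets) for SIVE against control, and with 4 means of group and anti-CD8 label for the other comparisons. This step was checked on simulated data with known changes. In SIVE against control it recovered 76.1% of 1.5-fold and 94.0% of 2-fold changes. Recovery was 61.2% and 92.5% without anti-CD8, and 28.4% and 68.7% with it. For anti-CD8 within SIVE it was 46.3% and 80.6%, and for the difference of the SIVE effects 14.9% and 65.7%. False calls were 4.5% to 6.7% of calls. Correlations used exact two-sided permutation tests (Python 3.11.15, scipy 1.17.1). Every probe set of the 8 genes was described; 22 lists with 190 genes, 140 of them measured, were read at each gene's brightest probe set, counts cover whole lists, the 3 genes with the smallest adjusted p in each list were to be named, and other list genes were named after their values were seen. The 8 genes and the lists were chosen with earlier results of these data known. Replicate numbers do not pair the animals: with the group mean of each probe set subtracted, same-numbered animals correlated between -0.488 and 0.0888. Alternatives covered covariates, blocks, scaling, low values, array weights, averaging of probe sets and leaving out animals; the comparison of probe sets of a gene and the correlations with label means removed were added after seeing the data.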

Additional observations from a re-analysis of the deposited data

Results flagged for a closer look

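Of the 34 groups of 9 animals (17 probe sets, SIVE and control), 8 held an animal whose gap to the nearest other was large for the range of its group (Dixon's test at 95%), and chance alone gives this in about 5% of groups. Control 8, one of the 3 animals of high 3′ signal, accounts for 4 of them. Its log2 signal was 3.87 for LYZ (nearest control 4.81), 5.57 for the third PTPRC probe set (4.71), 9.31 for CSF1R (8.45) and 9.26 for the brightest SELPLG probe set (8.17). SIVE 8 was low for the brightest CD53 probe set at 7.83 (nearest SIVE animal 8.48) and for the brightest SLC2A5 probe set at 7.19 (8.42). Control 2 was high for VSIG4 at 6.73 (nearest control 5.93), and Control 5 was low for the brightest PTPRC probe set at 4.97 (5.40).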

How the results depend on the processing

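Of 498 values of single probe sets in SIVE against control under the alternatives, 474 kept direction and side of the threshold, 13 no longer passed, 6 newly passed and 4 uncalled ones changed sign. One reversed: with a gene's probe sets averaged, CD68 was 0.55 (adjusted p = 7.92e-06), and 0.52 (adjusted p = 0.0424) in animals with anti-CD8, since the mean takes in the probe set that rose. Averaging gave 6 of 8 genes called, all higher, against 11 of 17 probe sets in 7 genes; the lower call of SELPLG was lost (-0.69, adjusted p = 0.0519). Without 1 animal the count was 10 to 12, without anti-CD8 8 to 12 and with anti-CD8 0 to 5. With a replicate block, though the numbers pair no animals, 9 of 17 were called in SIVE against control (lost were the second SELPLG probe set, adjusted p = 0.0739, and the third PTPRC probe set, adjusted p = 0.0834), 3 in animals without anti-CD8 and 0 in those with it. With anti-CD8 the count was 8 with all 36 arrays and the animal as a random block, and 0 with array weights or without SIVE 2, SIVE 3 and Control 8; the cause was not tested. For anti-CD8 within SIVE it was 3 with 36 arrays, 2 with array weights and 0 to 0 without 1 animal. The difference of the SIVE effects stayed at 0 under all alternatives run. Of the correlated pairs, 3 with Pearson's r, 1 passed with rho, 0 with the mean of probe sets, 0 without SIVE 2 and SIVE 3, and 0 to 5 without 1 animal; 0 relations with the virus passed under any. Among the lists, the replicate block called 0 endothelial genes (against 3), 0 neuronal (1), 0 neutrophil (1), 1 astrocyte (2) and 2 lysosomal (4). Animals without anti-CD8 alone gave 0 neutrophil, 1 astrocyte and 2 tetraspanin genes (4). The anti-CD8 label as a covariate gave 2 monocyte (1), 2 T cell (0), 3 B and plasma cell (1) and 2 hexose genes (1). All 36 arrays gave 3 monocyte, 2 cytotoxic, 2 hexose and 4 complement genes (2) and 0 neutrophil genes, and array weights 2 T cell, 2 cytotoxic, 2 B cell, 2 selectin and 2 hexose genes. Without the 3 animals of high 3′ signal there were 2 B cell and 2 hexose genes. Probe sets at or above the median level gave 0 B cell and 1 cell division gene (2). There JCHAIN and TOP2A, whose means over all arrays lay under that level, were left out before the test. Averaged probe sets gave 0 neutrophil and a second quantile normalization 2 cytotoxic genes. Few animals with anti-CD8 and dim probe sets limit what these values show.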
